A study of Mus musculus with 2 samples.

Results

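Cytochrome P450 genes were followed through the liver NPCs of 1 normal and 1 fibrotic mouse profiled by scRNA-seq. Their members were all gene rows of either library with a P450 symbol of the form Cyp, number, letters, number, without Cyp26a1 and Cyp26b1. This gave 74 of the 21722 genes listed in the libraries together, of which 73 were listed in the normal library, 67 in the fibrosis library and 66 in each of the libraries. Cyp51 and the Cyp4a12 pair have symbols of another form and were no members. The normal library (status quiescent state) came from a C57BL/6 male mouse given olive oil, and the fibrosis library (CCl4-mediated liver fibrosis) from a C57BL/6 male mouse given CCl4, diluted to 15% with olive oil and dosed at 0.6 µl for each g of the mouse. Each mouse was 8 weeks old and was injected i.p. 2 times a week for 6 weeks, with cells taken 48 h after the last injection. Each mouse gave 1 library, so no difference between the libraries has a replicate check, no test was made, and every interval below is a 95% interval that covers counting error only.

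P450 enzymes are haem proteins that insert an oxygen atom into their substrates, with electrons supplied by P450 oxidoreductase and cytochrome b5 in the endoplasmic reticulum or by ferredoxin in mitochondria. Hepatocytes carry most of the drug-metabolizing and bile acid-synthesizing forms, and their levels differ along the lobule: Cyp2e1, which activates CCl4, and Cyp1a2, which oxidizes aromatic amines, are textbook pericentral genes, whereas Cyp2f2, which oxidizes naphthalene, is a textbook periportal gene. Other forms belong to vessels, mesenchyme, bile ducts or leukocytes. An NPC preparation is depleted of hepatocytes by low-speed spins, and hepatocytes left in such a preparation and free RNA that enters droplets are known routes by which hepatocyte RNA can be read there.

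After cells with a mitochondrial share of 10% or more were left out, 7471 of 8130 normal and 6132 of 6437 fibrosis cells remained, with 41291976 and 51226285 UMIs (unique molecular identifiers, each standing for 1 captured RNA molecule). The libraries shared 15 cell barcodes. Member genes took 21.3 of every 10000 normal UMIs and 7.02 of every 10000 fibrosis UMIs. Levels below are the UMIs of a gene summed over a cell class, per 10000 UMIs of that class. Summed over the libraries, the members counted most deeply, and hence with the narrowest intervals, were Cyp3a11 with 14367 UMIs, Cyp4b1 with 13320, Cyp2f2 with 10573 and Cyp2e1 with 7804. At the other end, 15 members had under 20 UMIs in all, among them Cyp27b1, Cyp11b2, Cyp2c69, Cyp2a22 and Cyp26c1, and their levels are not described further.

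Sequence around the transcription start is shown for the 3 zonated hepatocyte forms and for Cyp1a1 and Cyp1b1, the members of the Cyp1 family that were read outside hepatocytes. Each run is the RefSeq promoter window of GRCm38.p6, from 250 bases before to 50 bases after the start, written 5′ to 3′ on the strand of the gene. Capitals mark TATAAA on the gene's strand, and GCGTG (the core bound by the aryl hydrocarbon receptor) and AGGTCA (a nuclear receptor half-site) on both strands, none of which overlapped another. Cyp2e1 lies at chr7:140763569-140763868 on the plus strand, Cyp1a2 at chr9:57683606-57683905 on the minus strand, Cyp2f2 at chr7:27119705-27120004 on the plus strand, Cyp1a1 at chr9:57697363-57697662 on the plus strand and Cyp1b1 at chr17:79715012-79715311 on the minus strand.
Cyp2e1: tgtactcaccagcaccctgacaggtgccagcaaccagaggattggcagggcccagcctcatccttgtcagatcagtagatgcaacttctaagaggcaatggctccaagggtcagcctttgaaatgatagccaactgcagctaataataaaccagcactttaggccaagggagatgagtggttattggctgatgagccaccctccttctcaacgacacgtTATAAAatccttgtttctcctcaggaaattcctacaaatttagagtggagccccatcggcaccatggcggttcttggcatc
Cyp1a2: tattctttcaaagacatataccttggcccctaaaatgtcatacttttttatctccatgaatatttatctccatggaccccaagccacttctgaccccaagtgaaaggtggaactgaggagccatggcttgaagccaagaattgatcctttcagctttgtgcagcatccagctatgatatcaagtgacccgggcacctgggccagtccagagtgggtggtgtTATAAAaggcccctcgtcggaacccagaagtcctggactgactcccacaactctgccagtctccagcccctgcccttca
Cyp2f2: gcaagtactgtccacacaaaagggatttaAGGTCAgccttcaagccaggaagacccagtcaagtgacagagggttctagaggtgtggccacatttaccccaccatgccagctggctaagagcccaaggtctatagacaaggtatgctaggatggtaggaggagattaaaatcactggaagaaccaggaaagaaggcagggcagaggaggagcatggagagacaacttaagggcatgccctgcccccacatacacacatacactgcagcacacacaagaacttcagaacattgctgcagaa
Cyp1a1: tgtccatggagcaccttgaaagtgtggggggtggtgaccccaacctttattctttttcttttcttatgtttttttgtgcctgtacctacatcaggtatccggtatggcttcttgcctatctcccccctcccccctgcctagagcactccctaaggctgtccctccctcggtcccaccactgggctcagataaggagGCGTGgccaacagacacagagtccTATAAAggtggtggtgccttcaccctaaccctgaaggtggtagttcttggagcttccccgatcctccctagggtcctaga
Cyp1b1: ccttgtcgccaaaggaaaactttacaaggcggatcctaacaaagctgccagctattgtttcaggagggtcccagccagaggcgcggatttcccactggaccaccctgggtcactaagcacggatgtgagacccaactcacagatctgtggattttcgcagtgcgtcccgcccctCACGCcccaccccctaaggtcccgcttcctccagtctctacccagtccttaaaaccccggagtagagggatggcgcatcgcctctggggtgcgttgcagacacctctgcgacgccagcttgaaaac
The windows of Cyp1a2, Cyp2e1 and Cyp1a1 each held 1 TATAAA, which 8.32% of all 32851 promoter windows held and 29.0% of the 62 windows of 56 member genes. GCGTG was found 1 time in each of Cyp1a1 and Cyp1b1 and not in the other windows printed, against 32.4% of all windows and 19.4% of member windows. AGGTCA was found 1 time in Cyp2f2, against 16.3% of all windows and 24.2% of member windows. A match is a run of letters and was not read as a bound site.

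The hepatocyte-like droplets were a class of different make in the libraries. The normal class held 104 droplets with a median of 10210 UMIs and was led by Fgb, Ces3b, Mug2 and Igfbp1, and the fibrosis class held 146 droplets with a median of 2054.5 UMIs and was led by Fabp1, Gsta1, Rbp4 and Rgn. In each library 29 of 29 hepatocyte markers had a UMI in the class, with a summed level of 2658 in normal and 977 in fibrosis droplets. The class was named with these markers, so the count does not test its name. In the normal class 23 of 23 endothelial markers had a UMI as well. The fibrosis class carried more RNA of other cells: the summed level of 23 endothelial markers was 26.7 against 8.08 in the normal class, that of 12 Kupffer cell markers 16.4 against 3.41, and that of 9 erythroid markers 21.5 against 2.67. Their part in the differences below was not tested. For this reason levels were also given per 10000 UMIs of 12 hepatocyte plasma protein genes (Alb, Apoa1, Ttr, Fgb and others, called the reference), whose summed level was 1779 in the normal and 610 in the fibrosis class. Values on this scale depend on the mix of these genes: Alb made up 1016 of the normal level and 225 of the fibrosis level, and the ratio of fibrosis over normal per 10000 UMIs was 0.221 for Alb and ranged from 0.146 for Fgb to 1.17 for Apoc3. A further normal cluster of 696 shallow droplets led by Rgn and Oat (median 1321.5 UMIs, reference level 653, erythroid marker level 333) stayed unnamed and was kept apart.

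In hepatocyte-like droplets the periportal form Cyp2f2 was far lower in the fibrosis library, Cyp1a2 was higher, and Cyp2e1 lay between, with a direction that turned with the scale; these class values do not hold the mix of zones fixed, which the landmark genes below divide. Cyp2f2 had 2671 UMIs and a level of 23.4 in the normal class, and 215 UMIs and a level of 2.21 in the fibrosis class. The ratio of fibrosis over normal was 0.0943 (0.0817 to 0.108) per 10000 UMIs and 0.275 (0.238 to 0.316) per 10000 reference UMIs. It was lower on either scale. Cyp1a2 had 192 UMIs and a level of 1.68 in the normal class, and 656 UMIs and a level of 6.74 in the fibrosis class. Its ratio was 4.0 (3.40 to 4.73) per 10000 UMIs and 11.7 (9.92 to 13.8) per 10000 reference UMIs. Cyp2e1 had 1032 UMIs and a level of 9.05 in the normal class, and 575 UMIs and a level of 5.91 in the fibrosis class. Its ratio was 0.653 (0.588 to 0.723) per 10000 UMIs but 1.90 (1.72 to 2.11) per 10000 reference UMIs, and with a mitochondrial limit of 20% it was 1.09 (1.01 to 1.17) per 10000 UMIs. The UMIs of Cyp2e1 over those of Cyp2f2, which depend on no scaling, went from 0.386 (0.359 to 0.415) in the normal to 2.67 (2.28 to 3.14) in the fibrosis class.

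In most single droplets of the normal class 1 gene of the pair made up most of its UMIs, although 62 of 104 held both. Of 104 droplets, 75 held more Cyp2f2 than Cyp2e1 UMIs and 24 more Cyp2e1 than Cyp2f2. Among the 95 droplets with at least 5 UMIs of the pair, Cyp2e1 made up under 0.2 of them in 67, over 0.8 in 20 and a share between these in 8. The droplets rich in Cyp2e1 were few and unequal: the highest held 244 Cyp2e1 UMIs, the next 139 and 69, and the top 4 droplets held 50.0% of all Cyp2e1 UMIs of the class, against 12.6% of Cyp2f2 for its own top 4. Across the 104 droplets, which share a library and differ in depth, Spearman's rho was -0.65 between Cyp2e1 and Cyp2f2 and 0.68 between Cyp2e1 and Cyp1a2. In the fibrosis class 69 of 146 droplets held neither Cyp2e1 nor Cyp2f2, and only 22 had at least 5 UMIs of the pair. Cyp2e1 made up over 0.8 of them in 15 and under 0.2 in 4. Across the 146 droplets rho was -0.09 between Cyp2e1 and Cyp2f2 and 0.44 between Cyp2e1 and Cyp1a2, and between Cyp2f2 and Cyp1a2 it was 0.23, against -0.56 in the normal class. The top 4 droplets held 63.5% of the Cyp2e1 UMIs, 70.7% of the Cyp2f2 UMIs and 58.2% of the Cyp1a2 UMIs, so few droplets carried the class levels of the fibrosis library. In droplets of over 5000 UMIs, 81 in the normal and 38 in the fibrosis class, the ratios of fibrosis over normal per 10000 reference UMIs were 0.277 for Cyp2f2, 12.4 for Cyp1a2 and 2.10 for Cyp2e1. Without the 3 droplets that held most of each gene they were 0.13, 10.9 and 1.99.

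**Figure D1:**
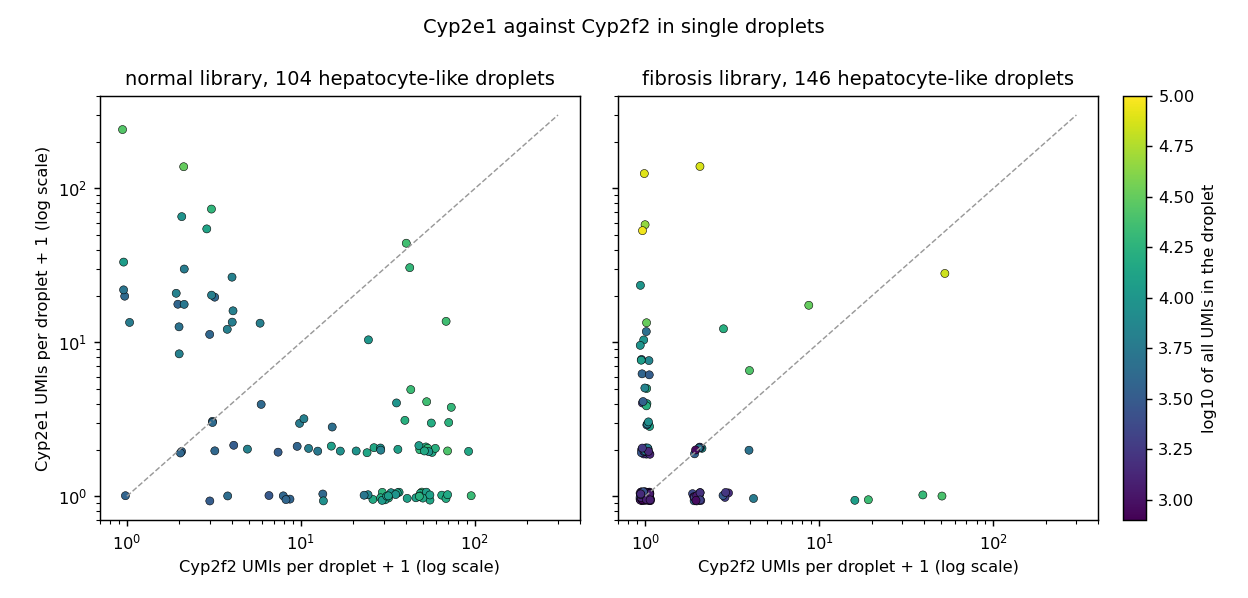
Each point is 1 hepatocyte-like droplet, with Cyp2f2 UMIs + 1 on the x axis and Cyp2e1 UMIs + 1 on the y axis (log scales, points moved slightly at random so that ties show) and its colour giving the log10 of all UMIs. The dashed line marks equal counts: 75 of 104 normal droplets lie below it and 24 above, and in the fibrosis library 69 of 146 sit at the lower left with neither gene.

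Landmark genes that are not P450 genes gave a reading that did not use the members. Some of them were not read from hepatocytes alone: in the fibrosis library Glul was at 3.17 in hepatocyte-like droplets, 3.35 in lymphoid and 7.31 in endothelial-like cells, and Ctsc at 1.55, 3.82 in lymphoid and 17.6 in Kupffer-cell-like cells, and the part of such RNA in the split was not tested. Droplets were divided by whether they held more UMIs of 16 pericentral landmarks (Glul, Gulo, Lect2, Aldh1a1 and others) or of 17 periportal landmarks (Hal, Sds, Pck1, Cps1 and others). In the normal class 8 droplets were pericentral and 96 periportal by this count, and in the fibrosis class 88 and 50. The count was not the same as that from the P450 pair, since 20 normal droplets had a Cyp2e1 share over 0.8 but only 8 were pericentral by landmarks. It also moves with the overall level of the lists, which was 25 for pericentral and 118 for periportal landmarks in the normal and 56.0 and 34.2 in the fibrosis class, so droplets of one name need not come from the same zone in each library. Cyp2e1 was 9.31 (8.2 to 10.6) times higher in pericentral than in periportal droplets in the normal class and 6.63 (4.69 to 9.67) times in the fibrosis class. For Cyp2f2 this ratio was 0.0253 (0.00822 to 0.0592) and 0.0625 (0.0404 to 0.0933). Both genes thus differed between the landmark groups in each library. Cyp2e1 was lower in the fibrosis library in each group, at 7.93 against 53.6 in pericentral and 1.20 against 5.76 in periportal droplets per 10000 UMIs, and Cyp2f2 was at 0.411 against 0.636 in pericentral and 6.58 against 25.1 in periportal droplets, a smaller difference than that of the whole class. Per 10000 reference UMIs Cyp2e1 was also lower in each group, at 128 against 472 and 20.1 against 31.5, while Cyp2f2 was at 6.62 (4.40 to 9.57) against 5.61 (1.82 to 13.1) in pericentral droplets, where its direction turned and the intervals overlap, and at 111 against 138 in periportal ones. The part of the landmark split in the class ratios was not tested. Cyp1a2, some Cyp2c forms and some other members differed. Cyp1a2 was 6.6 (4.80 to 8.98) times higher in pericentral droplets of the normal class, but 1.20 (1.01 to 1.44) times in the fibrosis class, where periportal droplets reached a level of 5.95 against 1.22 in the normal library, and pericentral droplets stood at 7.14 against 8.02, or at 115 against 70.6 per 10000 reference UMIs, where the direction turned. The same ratio went from 7.0 (5.97 to 8.2) to 0.896 (0.699 to 1.16) for Cyp2c29, from 3.42 (2.50 to 4.62) to 0.890 (0.598 to 1.34) for Cyp2c50 and from 3.86 (2.44 to 5.92) to 0.678 (0.261 to 1.89) for Cyp2c54. Cyp2c67 went from 2.27 (1.57 to 3.20) to 1.19 (0.704 to 2.09). Beyond the Cyp2c forms, Cyp4a10 went from 2.53 (1.51 to 4.06) to 0.437 (0.229 to 0.836). Cyp7b1 went from 1.85 (1.14 to 2.87) to 0.493 (0.204 to 1.22). Not all Cyp2c forms shared this: Cyp2c68 went from 0.993 (0.546 to 1.68) to 2.18 (1.22 to 4.18). Cyp2c70 was at 0.794 (0.465 to 1.28) and 0.97 (0.799 to 1.19). Cyp2c55 was at 3.40 (1.55 to 8.83) in the fibrosis class and is not compared with the normal class, where it had 8 UMIs. Cyp3a11, the main Cyp3a form, went from 1.80 (1.61 to 2.01) to 0.496 (0.438 to 0.562). Cyp7a1, the rate-limiting enzyme of bile acid synthesis, kept a pericentral excess of 6.57 (3.52 to 11.8) in the normal and 4.68 (2.92 to 7.92) in the fibrosis class. In the fibrosis class 1 landmark, Gstm3, stood at a level of 11.1 against 0.0526 in the normal class. Without Gstm3 the division was 70 and 65 droplets, and the ratios of the fibrosis class were 5.60 for Cyp2e1, 0.0361 for Cyp2f2, 1.18 for Cyp1a2, 0.410 for Cyp3a11 and 2.39 for Cyp7a1.

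Free RNA was read in lymphoid cells (those classed NK/T-cell-like or B-cell-like), 1597 normal and 1058 fibrosis cells with median depths of 3164 and 2385 UMIs. The reference stood at 243 per 10000 UMIs in normal and 25.9 in fibrosis lymphoid cells, and single hepatocyte genes departed from this fall, as given below. Cyp2e1 had 1064 UMIs and a level of 1.81 in normal, and 48 UMIs and a level of 0.151 in fibrosis lymphoid cells. Cyp2f2 had 1498 UMIs and a level of 2.55, and 106 UMIs and a level of 0.334. Per 10000 reference UMIs the ratio of fibrosis over normal was 0.783 (0.574 to 1.05) for Cyp2e1 and 1.23 (0.999 to 1.5) for Cyp2f2, and each of these intervals held 1. The median ratio of 397 hepatocyte genes (defined below) was 2.20 on this scale in lymphoid cells, so both genes lay below it. Cyp1a2 went the other way, from 196 UMIs and a level of 0.333 to 154 UMIs and a level of 0.485, with a ratio of 1.46 (1.17 to 1.81) per 10000 UMIs and 13.6 (11 to 16.9) per 10000 reference UMIs. Cyp2e1 over Cyp2f2 was 0.71 (0.656 to 0.769) in normal and 0.453 (0.315 to 0.643) in fibrosis lymphoid cells. This ratio rose in hepatocyte-like droplets, from 0.386 to 2.67, and was lower in the free RNA of the fibrosis library, a direction that turned with a mitochondrial limit of 5% (0.653 in normal and 0.727, 0.254 to 1.99, in fibrosis lymphoid cells), whereas Cyp1a2 per 10000 reference UMIs was higher in both readings.

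The pair was read in the other named classes as well. Outside the HSC/MF-like and PF-like classes, Cyp2e1 over Cyp2f2 lay between 0.525 and 0.941 in 11 normal and between 0.393 and 0.824 in 12 fibrosis classes. PF-like cells (portal fibroblast markers) stood apart. There Cyp2e1 had 84 UMIs in 28 of 44 normal cells (level 2.45) and 41 UMIs in 19 of 92 fibrosis cells (level 0.221), which was 3.49 and 5.32 times the count expected from lymphoid cells, and Cyp2e1 over Cyp2f2 was 2.63 (1.73 to 4.08) and 1.64 (0.974 to 2.81). In HSC/MF-like cells (stellate cells and myofibroblasts) it was 1.15 (0.887 to 1.49) and 1.53 (1.15 to 2.04). The shallow Rgn/Oat cluster had a ratio of 1.36 (1.24 to 1.5). Cyp1a2 per 10000 reference UMIs ranged from 8.19 to 27.2 over the 13 non-hepatocyte classes of the normal library and from 10.3 to 229 over the 14 of the fibrosis library, where the low end was the cholangiocyte-like class, which had an Alb level of 70.0 within a reference of 114.

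**Figure D2:**
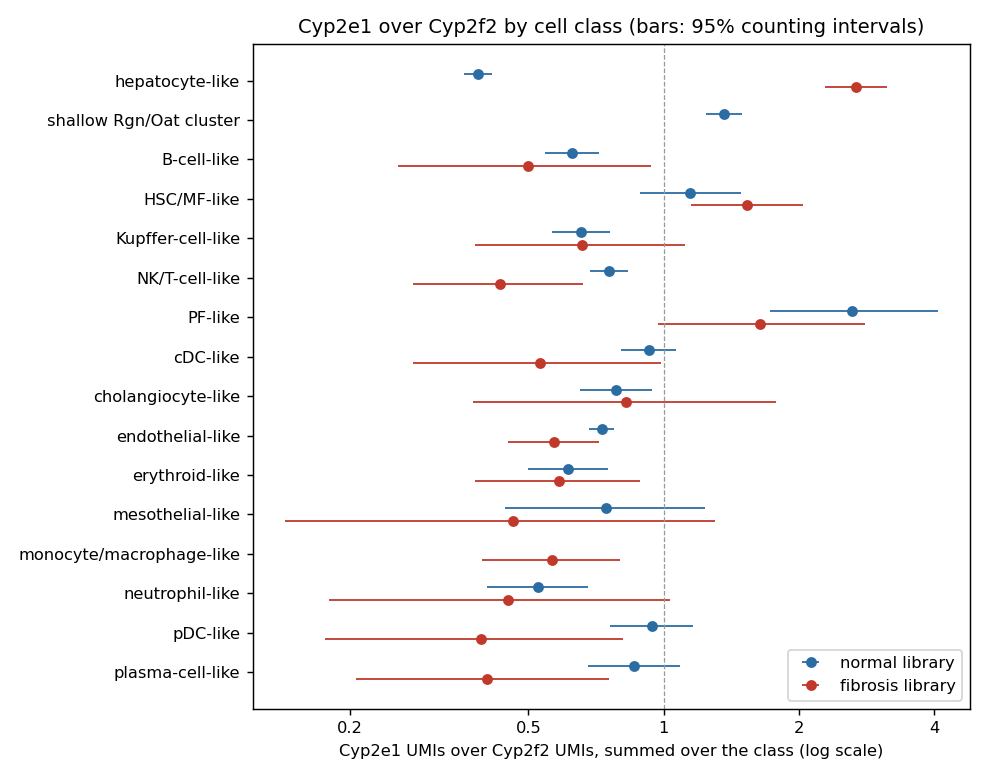
Cyp2e1 UMIs divided by Cyp2f2 UMIs, summed over each class, on a log x axis, with 95% counting intervals as bars (blue, normal library; red, fibrosis library). The hepatocyte-like points lie at 0.386 and 2.67, near the lower and upper ends of the classes drawn: fibrosis pDC-like cells lie at 0.393 and normal PF-like cells at 2.63.

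Most other members read in hepatocyte-like droplets were lower in the fibrosis class, and a small group was higher. Of 40 members with at least 20 UMIs in hepatocyte-like droplets, 27 were at most 0.5 times the normal level per 10000 UMIs, a share of 67.5%, while 6.58% of all 8284 genes were, and 7 were at least 2 times higher, against 44.6% of all genes. The median ratio was 0.359 for these members and 1.82 for all genes. Members at least 2 times higher included Cyp4b1, at 2.65 (1.41 to 5.25), and Cyp20a1, at 3.87 (1.86 to 8.79). Each had its highest level in a class other than the hepatocyte-like one in each library. Per 10000 reference UMIs, and among 415 hepatocyte genes (at least 5 times higher in normal hepatocyte-like droplets than in normal lymphoid cells, hence chosen on the normal library), 6 of 33 members were at most 0.5 times and 3 of 33 at least 2 times the normal level, against 17.8% and 17.3% of those genes, and the medians were 0.918 and 1.01. On this scale the shares of members were at or below those of the other hepatocyte genes in the upward direction and close to them in the downward one. The hepatocyte-like class had the highest level of any class for 38 members in the normal library (5.12% of all genes) and for 33 in the fibrosis library (12.2% of all genes).

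Among the bile acid enzymes, the initiating step and the 12α-hydroxylation step moved apart. Cyp7a1 had 55 UMIs in 23 of 104 normal droplets (level 0.482) and 233 UMIs in 30 of 146 fibrosis droplets (level 2.39). The ratio was 4.96 (3.68 to 6.78) per 10000 UMIs and 14.5 (10.7 to 19.8) per 10000 reference UMIs, with 65.2% of the fibrosis UMIs in 3 droplets, and 8.97 on the latter scale without the top 3. In the landmark groups the levels lay closer, at 2.29 in normal and 3.13 in fibrosis pericentral droplets and at 0.349 and 0.669 in periportal ones. Cyp8b1, the sterol 12α-hydroxylase that makes cholic acid, had 326 UMIs in 61 normal droplets (level 2.86) and 12 UMIs in 7 fibrosis droplets (level 0.123). Its ratios were 0.0431 (0.0220 to 0.0763) and 0.126 (0.0643 to 0.223), the lowest of the 40 members on either scale. Cyp2c70, which makes the muricholic acids of mice, was at 2.84 and 4.91, a ratio of 5.04 (4.37 to 5.82) per 10000 reference UMIs. Cyp7b1, the oxysterol 7α-hydroxylase, went from 1.68 to 0.247 with a reference ratio of 0.429 (0.268 to 0.658), and the mitochondrial Cyp27a1 from 2.08 to 0.853 with a reference ratio of 1.20 (0.92 to 1.54), whose interval held 1. Nr0b2 (SHP), a repressor of Cyp7a1 and Cyp8b1, had 48 UMIs in the normal and 4 in the fibrosis class.

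Free RNA gave a second reading of these enzymes in other droplets of the same mice. In lymphoid cells Cyp7a1 had 20 normal and 22 fibrosis UMIs and a reference ratio of 19.1 (9.95 to 36.9), Cyp8b1 had 108 and 1 UMIs and a ratio of 0.161 (0.00403 to 0.915), and Cyp2c70 had 190 and 55 UMIs and a ratio of 5.03 (3.65 to 6.82). The Cyp8b1 value rests on 1 fibrosis UMI. In endothelial-like cells Cyp8b1 had 185 and 16 UMIs and a reference ratio of 1.04 (0.582 to 1.73). It was 0.828 (0.163 to 2.63) in Kupffer-cell-like and 0.350 (0.0391 to 1.49) in cholangiocyte-like cells. Each interval outside lymphoid cells held 1. The median reference ratio of 397 hepatocyte genes in lymphoid cells was 2.20, so the values of Cyp7a1, Cyp1a2 and Cyp2c70 lay above and that of Cyp8b1 below it. On this scale 11 of 33 members were at least 2 times higher, against 52.6% of those genes, and 6 of 33 at most 0.5 times, against 7.81%. Per 10000 UMIs, 31 of 44 members were at most 0.5 times the normal level in lymphoid cells (8.51% of all 12415 genes) and 2 of 44 at least 2 times higher (10.8%). Cyp20a1 also had a high ratio, 19.8, with lymphoid levels of 0.223 and 0.469 per 10000 UMIs, and RNA made by lymphoid cells and free RNA cannot be told apart by this ratio.

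**Figure D3:**
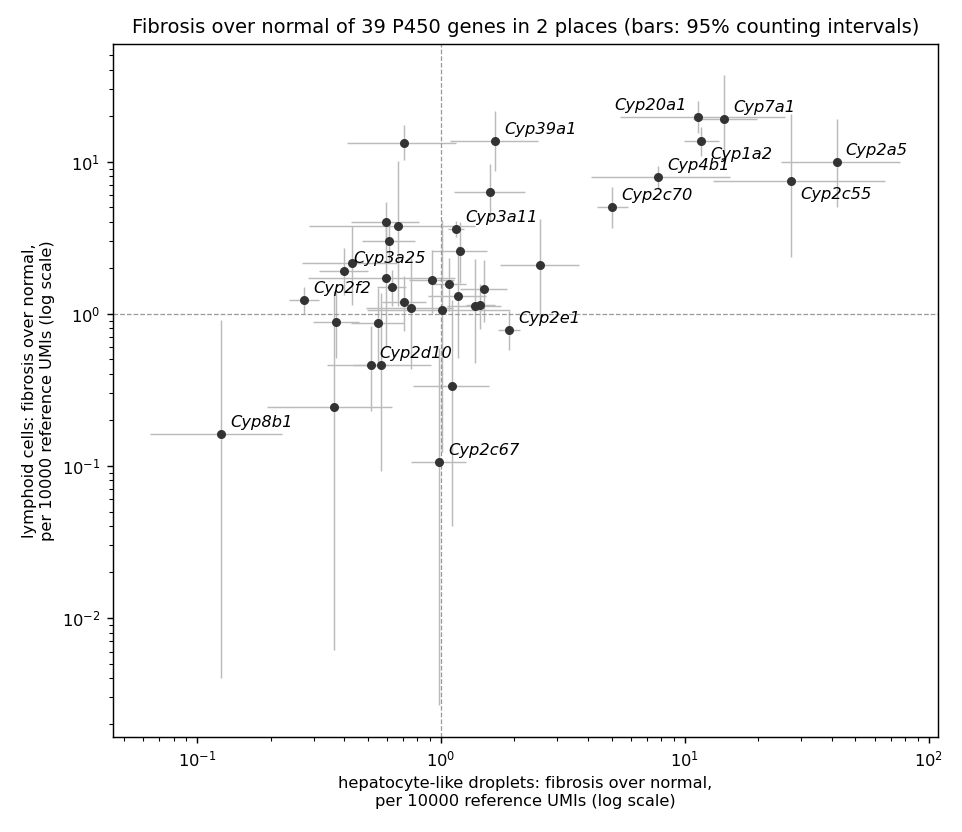
For 39 members, the ratio of fibrosis over normal per 10000 reference UMIs in hepatocyte-like droplets (x axis) against that in lymphoid cells (y axis), both on log scales, with 95% counting intervals as bars. Cyp7a1, Cyp1a2 and Cyp2c70 lie at the upper right, at 14.5 and 19.1, 11.7 and 13.6, and 5.04 and 5.03. Other members lie there too, among them Cyp2a5 (41.9 and 9.92) and Cyp20a1 (11.3 on the x axis). Cyp8b1 lies at the lower left, with few lymphoid UMIs in the fibrosis library.

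The xenobiotic forms were uneven. Cyp2a5, the coumarin 7-hydroxylase, had 15 UMIs in 9 normal droplets and 184 UMIs in 32 fibrosis droplets, with levels of 0.132 and 1.89. Its ratios were 14.4 (8.49 to 26.2) per 10000 UMIs and 41.9 (24.8 to 76.4) per 10000 reference UMIs, the highest of the 40 members, and its lymphoid reference ratio was 9.92 (5.02 to 19.0). Cyp2a4, a near copy, had 5 and 33 UMIs, and 33.3% of the 50-base words in its 3′ end also occurred in other P450 genes, most of them in Cyp2a5, so that reads of the pair could be split. Cyp2c55 had 8 and 64 UMIs and a reference ratio of 27.3 (13.1 to 66.0), with 57.8% of the fibrosis UMIs in 3 droplets. Of the Cyp2c forms known as pericentral, Cyp2c29 (706 and 299 UMIs) had a reference ratio of 1.45 (1.26 to 1.66), Cyp2c50 1.49 (1.19 to 1.86), Cyp2c37 1.01 (0.499 to 1.91) and Cyp2c54 0.569 (0.341 to 0.908). Cyp3a11, which oxidizes many drugs and steroids, had 3060 UMIs and a level of 26.8 in the normal, and 1031 UMIs and a level of 10.6 in the fibrosis class, a reference ratio of 1.15 (1.07 to 1.24). Cyp3a25 fell further, from 6.44 to 0.883, with a reference ratio of 0.4 (0.316 to 0.501).

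The Cyp2d forms and the fatty acid and arachidonate forms were uneven as well. Cyp2d9 went from 12.4 to 2.66, Cyp2d10 from 9.79 to 1.73 and Cyp2d26 from 7.88 to 1.01, with reference ratios of 0.628 (0.548 to 0.717), 0.514 (0.435 to 0.605) and 0.372 (0.299 to 0.459). Cyp2j5, a hepatic arachidonate epoxygenase, went from 4.87 to 1.18 with a reference ratio of 0.708 (0.574 to 0.867), and Cyp2c23 from 4.08 to 0.770 with 0.551 (0.426 to 0.705). Above 1 on the reference scale were Cyp2d40 with 70 and 52 UMIs and a ratio of 2.54 (1.74 to 3.69), Cyp2j6 with 116 and 54 UMIs and 1.59 (1.13 to 2.22), and Cyp4b1 with 15 and 34 UMIs and 7.74 (4.11 to 15.3), the last beside the higher endothelial markers of the fibrosis class, whose part in it was not tested. The peroxisome proliferator-induced ω-hydroxylases Cyp4a10 and Cyp4a14 had reference ratios of 1.10 (0.764 to 1.57) and 0.751 (0.492 to 1.11), whose intervals held 1. Cyp4f14 was at 0.918 (0.741 to 1.13), Cyp4v3 at 0.613 (0.475 to 0.783), Cyp2a12 at 1.08 (0.921 to 1.27) and Cyp4f15 at 0.362 (0.193 to 0.630). Copies with near-identical 3′ ends are less certain than the rest: 16 members shared at least 10% of the 50-base words in their last 400 bases with another P450 gene. Among them were Cyp2d26 (33.1%), Cyp2d9 (26.8%), Cyp2d10 (25.1%), Cyp2c50 (23.1%), Cyp2c67 (37.3%) and Cyp2c68 (51.6%). Cyp2d40 (29.9%) shared most with Cyp2d26, whose ratio went the other way. By contrast, 45 members shared none.

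**Figure D4:**
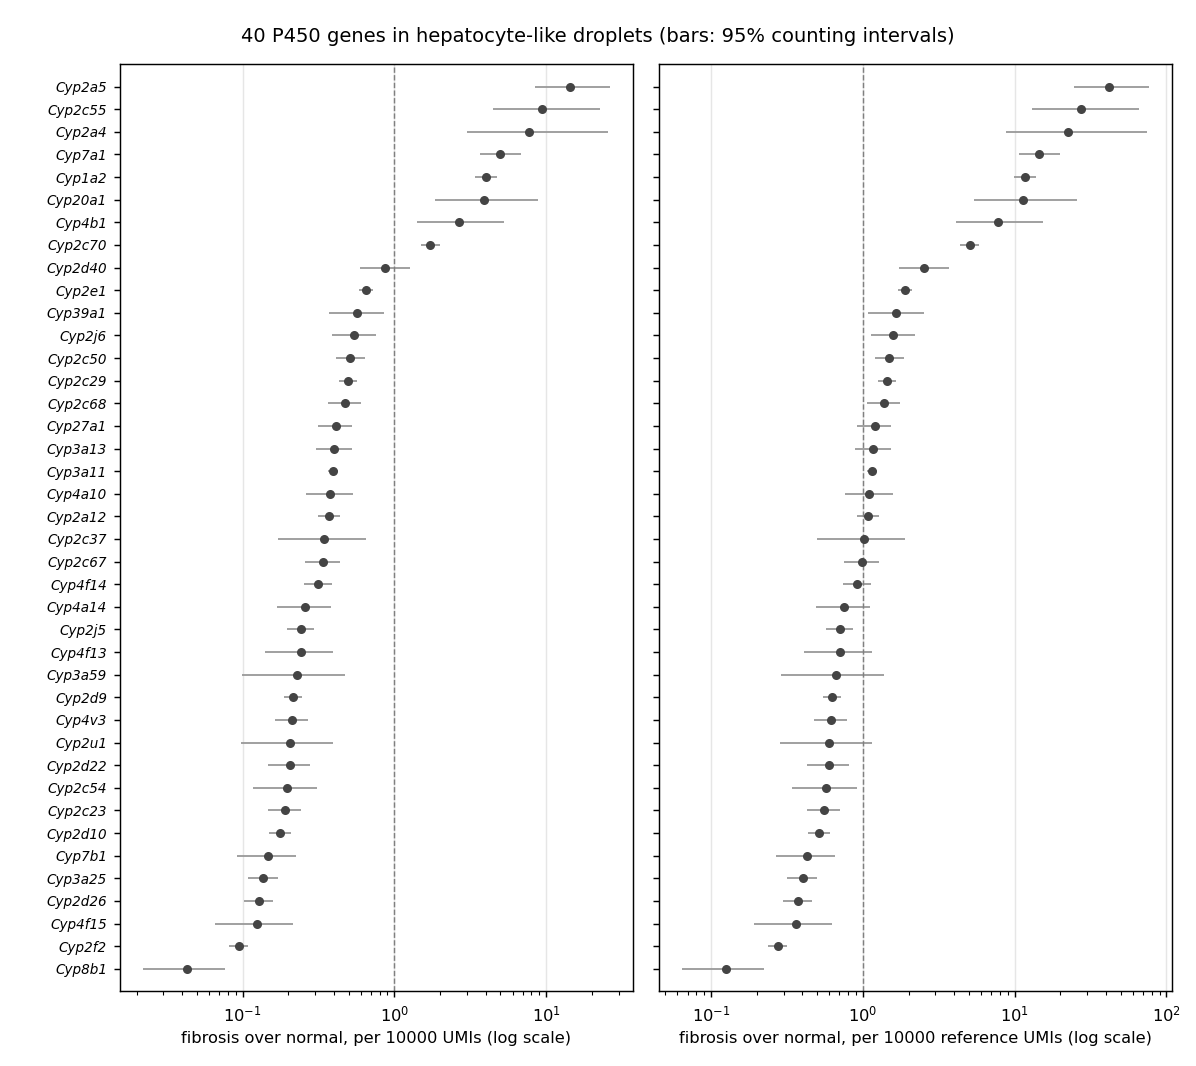
The ratio of fibrosis over normal in hepatocyte-like droplets for the 40 members with at least 20 UMIs there, per 10000 UMIs (left) and per 10000 reference UMIs (right), on log x axes, with 95% counting intervals as bars. Cyp2a5 is highest and Cyp8b1 lowest on either scale, and Cyp2e1 lies left of 1 in the left panel (0.653) and right of 1 in the right panel (1.90).

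Of 7 electron partner genes of P450 enzymes, 3 were at least 2 times higher and 0 at most 0.5 times in the fibrosis hepatocyte-like class per 10000 UMIs, with a median ratio of 1.29. Over all genes 44.6% were at least 2 times higher and 6.58% at most 0.5 times, with a median of 1.82, so the partners did not stand out from genes at large. Cyb5a (cytochrome b5) went from 5.67 to 17.0, Cyb5r3, its reductase, from 2.53 to 5.31, and Fdx1, the mitochondrial ferredoxin, from 1.22 to 2.72, while Por, the oxidoreductase that serves all microsomal forms, was at 1.51 and 1.47. Of 11 regulator genes 10 had at least 20 UMIs, of which 1 was at least 2 times higher and 2 at most 0.5 times, with a median of 0.750, against the same shares and median over all genes. Ahr, the aryl hydrocarbon receptor, had 30 and 55 UMIs (levels 0.263 and 0.565), Nr1i3 (CAR) had 52 and 29 (0.456 and 0.298) and Hnf4a had 256 and 162 (2.25 and 1.66). Outside the naming rule, the lanosterol demethylase Cyp51 was at 1.75 and 1.01.

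Outside hepatocytes, a member was called above free RNA in a class if it had at least 20 UMIs there and at least 3 times the count expected from the reference in that class. With the expectation taken from hepatocyte-like droplets, 19 of 52 members passed in at least 1 named class of the normal and 22 of 50 of the fibrosis library, against 90.1% and 89.7% of all genes. With the expectation taken from lymphoid cells the counts were 17 and 19, against 60.8% and 66.1%. In each case a smaller share of members than of all genes was called. Cyp2f2 differed between the expectations: in the fibrosis library it passed in 12 classes, 1 of them unnamed, by the former and in 0 by the latter. Cyp4b1, a fatty acid and furan oxidase of lung and vessels, had 5890 UMIs in normal endothelial-like cells (level 4.30, 4.19 to 4.41) and 3289 in fibrosis ones (2.37, 2.29 to 2.45), a ratio of 0.551 (0.528 to 0.575). After thinning each cell to 1000 UMIs, 30.1% of normal and 18.4% of fibrosis endothelial-like cells held a Cyp4b1 UMI, against 5.58% and 5.45% of lymphoid cells, and before thinning the shares were 70.6% and 64.8%, against 14.7% and 12%.

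Endothelial clusters divided the forms between them. Cyp4b1 was highest in the normal cluster led by Oit3, Lyve1 and Clec4g, genes of sinusoidal endothelium (LSECs), at 5.56, and stood at 1.5 in the cluster led by Nrg1 and Gja5, genes of larger vessels. In the fibrosis library the clusters led by Kdr and Plpp3 and by Esm1 and Flrt1 had Cyp4b1 levels of 2.63 and 2.93, and the cluster with Gja5 among its leading genes 0.949. Cyp1a1, an inducible aryl hydrocarbon hydroxylase, had the opposite order: of its endothelial-like UMIs, 448 of 476 in the normal and 383 of 466 in the fibrosis library lay in the Gja5 cluster, with levels of 1.28 (1.16 to 1.40) and 1.30 (1.18 to 1.44), whose intervals overlap. Cyp1b1, its family member in mesenchyme and vessels, also lay in this cluster in the normal library, with 213 UMIs and a level of 0.607, but had 15 UMIs and a level of 0.0510 in the Gja5 cluster of the fibrosis library. Neither Cyp1a1 nor Cyp1b1 had a UMI in hepatocyte-like droplets of either library, which allows levels of up to 0.0263 and 0.0308. The NK/T-cell-like class of the normal library held a cluster of 63 cells, led by Edn1, Sytl3 and Klra8, with a Cyp4b1 level of 3.27 and 20 UMIs each of Cyp1a1 and Cyp1b1, and its part in the lymphoid level of these forms was not tested. In B-cell-like cells Cyp4b1 was at 0.441 and 0.401.

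Mesenchymal and surface cells carried other forms. Cyp20a1, a P450 with no established substrate, was highest in HSC/MF-like cells of the normal library, with 255 UMIs at a level of 1.71 (1.5 to 1.93), and in PF-like cells of the fibrosis library, with 311 UMIs at 1.68 (1.5 to 1.88), next to 1.33 (1.26 to 1.41) in fibrosis HSC/MF-like cells. It was 20.7 times the lymphoid expectation in normal and 9.09 times in fibrosis HSC/MF-like cells. Cyp1b1 stood at 1.11 in normal and 0.475 in fibrosis PF-like cells. In mesothelial-like cells, which cover the liver surface, Cyp1b1 had 9 UMIs, all in 1 of 46 cells, in the normal library, and 462 UMIs in 29 of 80 cells in the fibrosis library, at a level of 2.64 (2.41 to 2.9) with 33.6% of the UMIs in 3 cells. Cyp2s1, an epithelial form, went the other way in the same class, from 161 UMIs in 40 of 46 cells (level 2.79) to 108 UMIs in 41 of 80 cells (0.618), a ratio of 0.222 (0.172 to 0.285). The summed level of 10 mesothelial markers in this class also went from 220 to 72.9, and its part in these differences was not tested. Cyp7b1 in mesothelial-like cells had 4 normal and 67 fibrosis UMIs, a level of 0.383 in the latter that was above the 0.247 of fibrosis hepatocyte-like droplets. In fibrosis PF-like cells Cyp7b1 was at 0.205.

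Cholangiocyte-like cells, which line bile ducts, held Cyp2d22, Cyp2j6, Cyp4f14 and Cyp39a1 in each library. Cyp2d22 was at 1.44 and 1.06, Cyp2j6 at 1.23 and 1.26, Cyp4f14 at 1.06 and 1.23, and Cyp39a1, an oxysterol 7α-hydroxylase, at 0.411 and 0.522. For Cyp2j6, Cyp4f14 and Cyp39a1 the ratio of fibrosis over normal was 1.02 (0.863 to 1.21), 1.16 (0.976 to 1.38) and 1.27 (0.963 to 1.67), whose intervals held 1, while that of Cyp2d22 was 0.739 (0.620 to 0.878). Not all were above free RNA by both expectations: in the fibrosis library Cyp2d22 and Cyp39a1 were 1.42 and 1.02 times the lymphoid expectation, and in the normal library Cyp4f14 was 2.71 times the expectation from hepatocyte-like droplets. Cyp2d22 and Cyp2j6 were also above free RNA by both expectations in endothelial-like cells, at 1.05 and 0.507 for Cyp2d22 and at 0.381 and 0.346 for Cyp2j6.

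Among leukocytes, Cyp4f18, which hydroxylates leukotriene B4 in mouse neutrophils, was uneven. It had 199 UMIs in neutrophil-like cells of the normal library (level 3.31, 2.87 to 3.81) and 166 in those of the fibrosis library (3.52, 3.01 to 4.10), a ratio of 1.06 (0.860 to 1.31). After thinning, 32.5% and 26.9% of neutrophil-like cells held a Cyp4f18 UMI. In B-cell-like cells Cyp4f18 was at 1.18 and 1.97, in NK/T-cell-like cells at 0.0465 and 0.155, and in fibrosis monocyte/macrophage-like cells, a class with no normal counterpart here, at 1.03. Cyp27a1, which also makes 27-hydroxycholesterol in macrophages, was at 0.708 in normal and 0.580 in fibrosis cDC-like cells, and at 0.581 and 0.270 in Kupffer-cell-like cells. The normal cDC-like cluster was also led by Mpo, Elane and Prtn3, granule genes of granulocyte precursors, so it is not made of dendritic cells alone. Cyp4f16 was highest in cDC-like cells as well, at 0.450 and 0.598. Cyp11a1, the side-chain cleavage enzyme that starts steroid synthesis, had 61 UMIs in 11 of 450 normal cDC-like cells, 67.2% of them in 3 cells, and Cyp2ab1 had 24 UMIs in the same class.

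**Figure D5:**
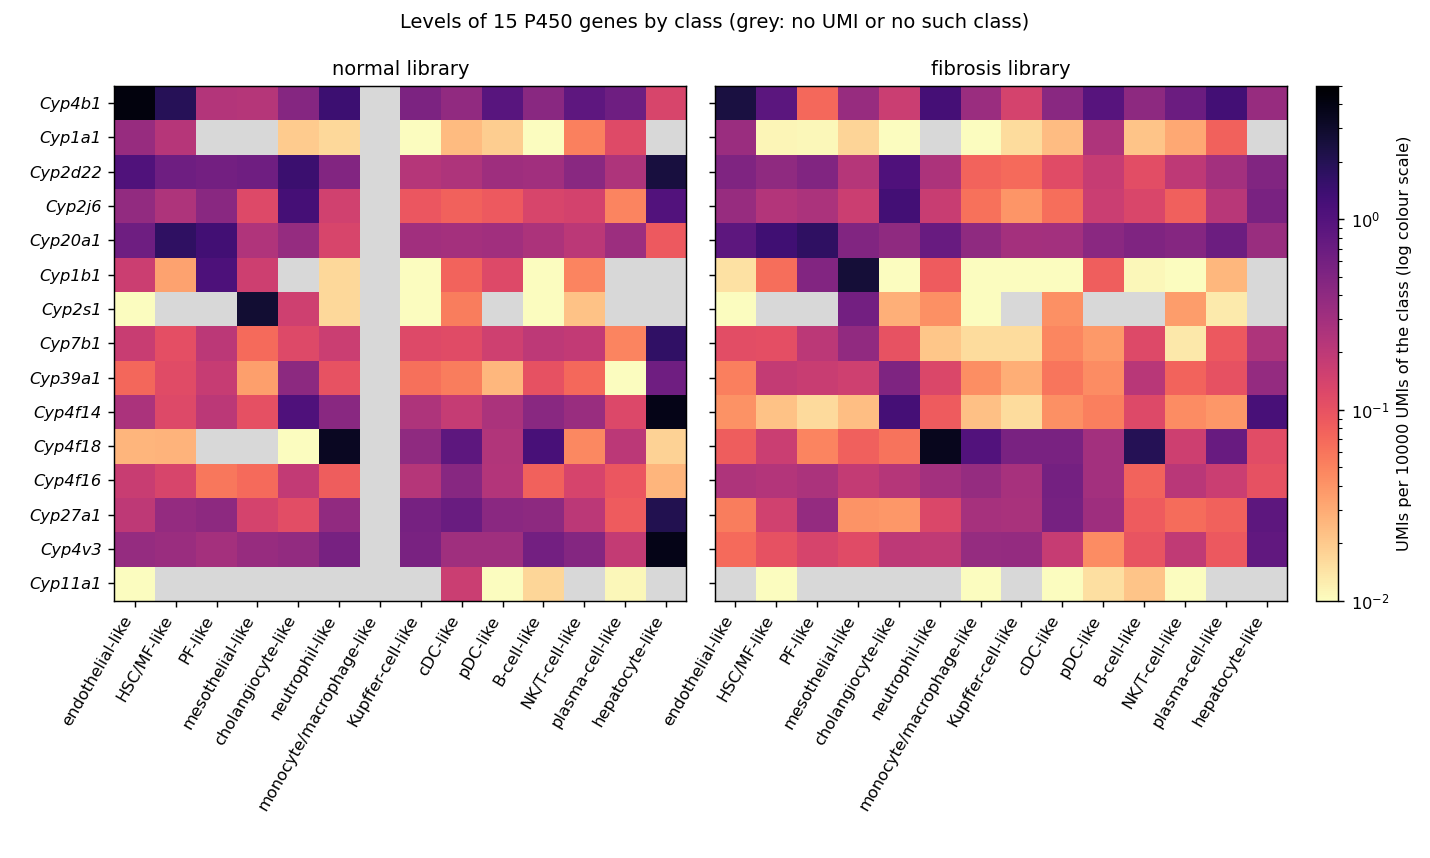
Levels of 15 members (rows) in 14 classes (columns) of the normal (left) and fibrosis (right) library, as UMIs per 10000 UMIs of the class on a log colour scale, with grey for no UMI or no such class and the erythroid-like class not drawn. Cyp4b1 is darkest in endothelial-like, Cyp4f18 in neutrophil-like and Cyp2s1 in normal mesothelial-like cells (4.30, 3.31 and 2.79), and Cyp1b1 is darkest in fibrosis mesothelial-like cells (2.64).

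The remaining forms above free RNA were low. By both expectations, Cyp2j9 passed in endothelial-like cells of each library (69 and 39 UMIs), Cyp2u1 in HSC/MF-like cells of each (20 and 70 UMIs), Cyp2r1, a vitamin D 25-hydroxylase, in fibrosis endothelial-like cells (29 UMIs), and Cyp4v3 in fibrosis Kupffer-cell-like and monocyte/macrophage-like cells (140 and 270 UMIs). Cyp8b1 passed in fibrosis cDC-like cells with 22 UMIs, 59.1% of them in 3 cells, which was more than its 12 UMIs in all fibrosis hepatocyte-like droplets.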

How the data were processed

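Liver NPCs of 1 normal and 1 fibrotic mouse were measured by scRNA-seq with 10x Chromium 3′ chemistry. The authors aligned reads to mm10 with Cell Ranger 3.0.1 and deposited UMI counts per gene and cell without normalization; the methods state that doublets were excluded with Scrublet, and no further doublets were removed. A cell was kept if it had more than 200 genes and less than 10% mitochondrial UMIs. Each library was clustered alone in scanpy 1.11.5 (10000 UMIs per cell, natural log, 2000 variable genes without the P450 members, 10 principal components, 20 neighbours, Leiden resolution 0.8). Clusters were named by whichever class had most markers in their 10 leading genes, provided that at least 3 of that class's markers were raised 2 times. The marker lists and the members were chosen with earlier results of these data known. No test was made; intervals are exact Poisson, conditional or binomial ones at 95%, from summed counts, and cover counting error only. A level for a count of 0 is the limit of 3 counts. Shares of cells were thinned to 1000 UMIs, leaving out shallower cells. The functions were tested on simulated data. Named genes are the zonated forms, the 12 members with the highest hepatocyte-like levels and the textbook lists, and members above free RNA in a class; further hepatocyte forms were chosen after their values were seen. Symbols were placed in GENCODE vM21 (GRCm38), which held all 74 members. Alternatives changed 1 choice at a time and are given last. The annotation used by the authors for counting is not given in the sources used here. 0 columns of other samples were found in the tables. Values of 1 unnamed fibrosis cluster are not reported here.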

Additional observations from a re-analysis of the deposited data

Results flagged for a closer look

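4 values of Cyp1 family genes were flagged because they differed widely between the libraries. None of these differences was tested, since each rests on 1 library per condition. Cyp1b1 in mesothelial-like cells had a ratio of fibrosis over normal of 17 (8.86 to 37.3) with 9 normal and 462 fibrosis UMIs, of which the normal ones lay in 1 cell. Cyp1b1 in cDC-like cells had a ratio of 0.0794 (0.00194 to 0.48) with 28 and 1 UMIs. This value did not stand apart from other classes. Cyp1b1 was at 0.0889 (0.0533 to 0.141) in endothelial-like cells, with 222 and 20 UMIs. In NK/T-cell-like cells it was at 0.182 (0.0206 to 0.748), with 20 and 2 UMIs. Cyp1a1 in HSC/MF-like cells had a ratio of 0.0499 (0.0219 to 0.104) with 33 and 10 UMIs, and 97.0% of the normal UMIs lay in 3 cells. Cyp1a1 in pDC-like cells had a ratio of 13 (4.09 to 66.4) with 3 and 33 UMIs, and 90.9% of the fibrosis UMIs lay in 3 cells. Cyp1a1 in endothelial-like cells, beside these, had a ratio of 0.966 (0.849 to 1.10).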

How the results depend on the processing

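9 results were recomputed under alternative settings, which gave 108 values, of which 11 came from settings added after seeing the data (the Rgn/Oat cluster as hepatocyte-like, the expectation from lymphoid cells, and droplets over 5000 UMIs). The landmark division without Gstm3 was also chosen after seeing the data. Of the 108 values, 78 stayed within the counting interval or, for the counts of members, within 1.5 times the value given, 27 moved further and 3 changed direction. Cyp2e1 in hepatocyte-like droplets (fibrosis over normal 0.653) turned to 1.09 with a mitochondrial limit of 20% or none and to 1.90 per reference, and moved to 0.576 at resolution 1.5, 0.567 with members among the variable genes, 0.397 per cell and 0.751 in droplets over 5000 UMIs. Cyp1a2 (4.0) moved to 5.16 at the mitochondrial limits of 20% and none, 2.43 per cell and 11.7 per reference. Cyp2f2 (0.0943) moved to 0.152 when clusters were named by mean log2 fold or the Rgn/Oat cluster was added, 0.0418 without the top 3 cells, 0.0573 per cell and 0.275 per reference.

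Cyp2e1 over Cyp2f2 in normal hepatocyte-like droplets (0.386) moved to 0.495 at the mitochondrial limits of 20% and none, 0.465 at resolution 1.5, 0.416 without the highest 5% of doublet scores, 0.606 with naming by mean log2 fold or the Rgn/Oat cluster, 0.476 with members variable and 0.241 without the top 3 cells. In the fibrosis droplets (2.67) it moved to 1.81 with a mitochondrial limit of 5% and 5.63 at 20% or none. In lymphoid cells it moved from 0.71 to 0.653 at a limit of 5% and 0.625 in B cells alone in the normal library, and from 0.453 to 0.727 at 5% in the fibrosis library, so that at 5% fibrosis was no longer the lower of the libraries. The cause was not tested. A limit of 5% left no normal hepatocyte-like class. The counts of 19 and 22 members above free RNA ranged from 16 to 22 and from 15 to 28, the latter with 15 at a mitochondrial limit of 5% and 28 with at least 10 UMIs. The median depth of 2054.5 UMIs limits single droplets of the fibrosis class, and with 1 library per condition no replicate could be left out. No paired analysis was possible because each condition had 1 library and no test was made.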
